A study of Mus musculus with 12 samples.

Results

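Ifi27 and Ifi27l2a are neighbouring genes of the mouse ISG12 family, and they were taken by symbol, 2 of the 32285 genes in the count table. They were chosen by their expression levels across the 4 groups, since earlier results of these data showed Ifi27 falling where other interferon-named genes rose, so their own levels across the groups are given as a description and carry no test. RNA was sequenced with poly(A) selection from bone marrow-derived macrophages (BMDMs) of genotype WT, which are obtained by culturing mouse marrow cells. They were treated for 16 h with itaconic acid (IA), methylsuccinic acid (MetSA) or malonic acid (MA), each at 5 mM, or in medium alone (M), with 3 biological replicates in each of the 4 groups. The labels state no strain, age or sex, and do not say whether the replicates came from separate mice, so p-values measure the spread between these cultures.

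ISG12 proteins are small, hydrophobic membrane proteins. Human IFI27 is among the most strongly induced genes in blood cells during virus infection, and its protein has been placed at mitochondria and at the nuclear envelope, where it has been tied to cell death and to the export of nuclear receptors. Type I interferons act through the receptor chains Ifnar1 and Ifnar2, the kinases Jak1 and Tyk2 and transcription factors that include Stat2 and Irf9, which switch on interferon-stimulated genes. Itaconic acid, a product of activated macrophages, has a methylene group that methylsuccinic acid replaces by a saturated methyl group. Malonic acid has a shorter chain and inhibits succinate dehydrogenase.

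In GENCODE M21 (GRCm38, mm10) Ifi27 lies on the plus strand of chromosome 12 from 103434211 to 103440239 and Ifi27l2a on the minus strand from 103442167 to 103443680, so the genes point towards each other with 1927 bases between their 3′ ends. Ifi27l2b, the third gene of the family there, follows on the minus strand from 103450898 to 103457223. Each of the 3 genes has a coding exon of 162 bases. These exons are shown because they align without gaps and so bear on whether reads of one gene could be counted for another. Exon numbers are those of each gene's lowest-numbered transcript. Each is written on the gene's own strand, with capitals in Ifi27 and Ifi27l2a at bases where the pair differ, and capitals in Ifi27l2b where it differs from Ifi27l2a.

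Ifi27 exon 5, plus strand, chr12:103439401-103439562: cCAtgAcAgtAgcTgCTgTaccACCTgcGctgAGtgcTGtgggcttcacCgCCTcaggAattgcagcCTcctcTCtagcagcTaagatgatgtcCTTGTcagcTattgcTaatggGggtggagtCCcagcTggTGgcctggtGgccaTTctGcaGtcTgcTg
Ifi27l2a exon 3, minus strand, chr12:103442832-103442993: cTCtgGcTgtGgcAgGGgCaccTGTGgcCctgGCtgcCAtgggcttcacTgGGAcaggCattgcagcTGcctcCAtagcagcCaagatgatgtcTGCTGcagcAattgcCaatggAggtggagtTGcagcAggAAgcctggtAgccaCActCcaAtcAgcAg
Ifi27l2b exon 3, minus strand, chr12:103456358-103456519: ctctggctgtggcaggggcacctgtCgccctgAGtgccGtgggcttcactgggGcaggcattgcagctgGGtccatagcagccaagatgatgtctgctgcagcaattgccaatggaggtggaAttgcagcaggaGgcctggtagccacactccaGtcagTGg

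Ifi27 and Ifi27l2a were identical at 114 of these 162 bases (70.4%), and their longest identical run was 11 bases. Ifi27l2b was closer to Ifi27l2a, with 150 identical bases (92.6%) and a run of 51. Over whole annotated transcripts, 0 of 1551 stretches of 25 bases in Ifi27 occurred in a transcript of any other gene, whereas 38 of 439 in Ifi27l2a (8.66%) also occurred in Ifi27l2b. RefSeq on the same assembly draws Ifi27l2a longer, from 103433873 to 103443680, an interval that holds all 6057 bases of the RefSeq Ifi27 gene on the opposite strand. The strand setting and annotation behind the counts are unknown here, and any effect of that overlap on the counts was not tested.

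Ifi27 was expressed at moderate levels in medium and was much lower with IA and MetSA. Its levels are given as CPM, which are counts scaled to the TMM-normalised size of each library. With IA the libraries held 11.0, 22.8 and 13.6 CPM for replicates 1 to 3. With MetSA they held 14.5, 16.9 and 23.9 CPM. With MA they held 59.5, 63.5 and 57.9 CPM, and in M 55.7, 52.2 and 52.6 CPM. All 6 IA and MetSA libraries lay below all 6 MA and M libraries, and IA and MetSA overlapped each other. The group means were 15.8 ± 6.16 CPM in IA, 18.4 ± 4.89 CPM in MetSA, 60.3 ± 2.91 CPM in MA and 53.5 ± 1.93 CPM in M (SD, n = 3 each).

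Relative to M, the log2 fold change of Ifi27 was -1.76 (SE 0.26) with IA, 0.295 times the M level, and -1.54 (SE 0.26) with MetSA, 0.344 times. With MA it was 0.17 (SE 0.25), a ratio of 1.13. The fit shares its estimate of spread among all 4 groups, so this SE also carries the larger spread of IA and MetSA. The lowest MA library lay above the highest M library. The share of all genes whose groups do not overlap was not counted, here or for the other genes. Of the 8509 genes with a mean of at least 10 CPM in IA or M, 5 had a lower log2 fold change than Ifi27. Of the 8479 such genes for MetSA and M none was lower. The groups with little Ifi27 were also the most variable, with an SD of 38.9% of the mean in IA and 26.6% in MetSA, against 4.83% in MA and 3.61% in M. The smallest count of Ifi27 was 518, for which counting error alone is 4.39%, or more if read mates were counted separately.

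Ifi27l2a ran the other way with IA and MetSA, and was lower with MA. Its libraries held 257, 254 and 292 CPM with IA, 433, 332 and 197 CPM with MetSA, 68.1, 74.5 and 84.1 CPM with MA, and 99.6, 151 and 165 CPM in M. MetSA replicate 3 was the lowest of the 6 IA and MetSA libraries and lay nearest to M, and no library of M reached it. The means were 268 ± 21.5 CPM in IA, 321 ± 118 CPM in MetSA, 75.6 ± 8.07 CPM in MA and 139 ± 34.5 CPM in M (SD, n = 3 each). The order of levels was MetSA, IA, M and MA, in which MetSA and IA overlapped and the other neighbours did not. Against M the log2 fold change was 0.95 (SE 0.28) with IA, 1.21 (SE 0.28) with MetSA and -0.87 (SE 0.28) with MA, or 1.93, 2.32 and 0.545 times the M level. These 3 comparisons share the M libraries.

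**Figure D1:**
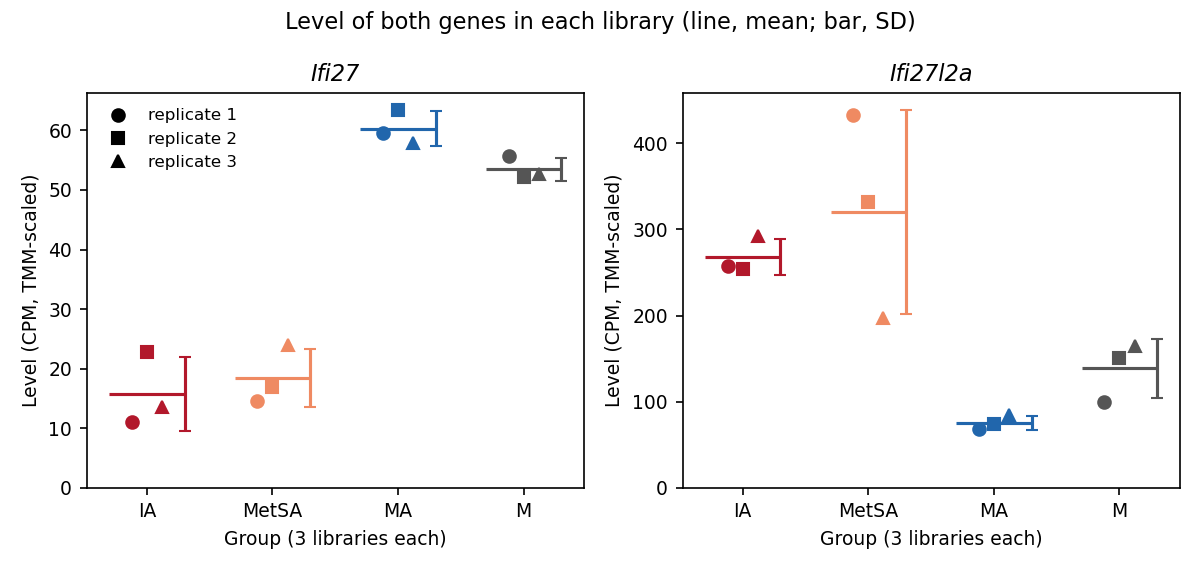
Level of Ifi27 (left) and Ifi27l2a (right) in CPM in each library by group, where marker shape gives the replicate, the line is the mean and the bar is the SD of 3 libraries. Ifi27 was at 11.0 to 23.9 CPM in the IA and MetSA libraries and at 52.2 to 63.5 CPM in the MA and M libraries, whereas Ifi27l2a was highest in MetSA and IA and lowest in MA.

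IA and MetSA, which differ by that methylene group and were given at the same dose and time, gave overlapping levels of both genes. The log2 difference of IA from MetSA was -0.22 for Ifi27 (SE 0.26) and -0.26 for Ifi27l2a (SE 0.28). These values describe the libraries, and whether the 2 compounds differ in their effect on the pair was not tested. IA and MA were far apart, with log2 differences of -1.93 (SE 0.26) for Ifi27 and 1.82 (SE 0.29) for Ifi27l2a. MetSA and MA differed by -1.71 (SE 0.26) and 2.09 (SE 0.29).

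Per kilobase of annotated exon, where levels of different genes can be set side by side, Ifi27l2a was the more abundant in every library. It averaged 578 ± 46.4 RPKM in IA, 693 ± 256 in MetSA, 163 ± 17.4 in MA and 299 ± 74.4 in M, whereas Ifi27 averaged 10.8 ± 4.20, 12.6 ± 3.34, 41.1 ± 1.99 and 36.5 ± 1.32 RPKM in the same groups. The ratio of Ifi27l2a to Ifi27 per length within a library was 73.8, 35.3 and 67.9 with IA, 94.9, 62.2 and 26.1 with MetSA, 3.63, 3.72 and 4.61 with MA, and 5.66, 9.18 and 9.93 in M. This ratio does not depend on the scaling between libraries, and all 6 IA and MetSA libraries lay above all others. MA lay below M without overlap. The exon lengths used were 1467 bases for Ifi27, which has 9 annotated transcripts, and 463 bases for Ifi27l2a, which has 1, so the absolute ratio would change with another choice of transcript.

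**Figure D2:**
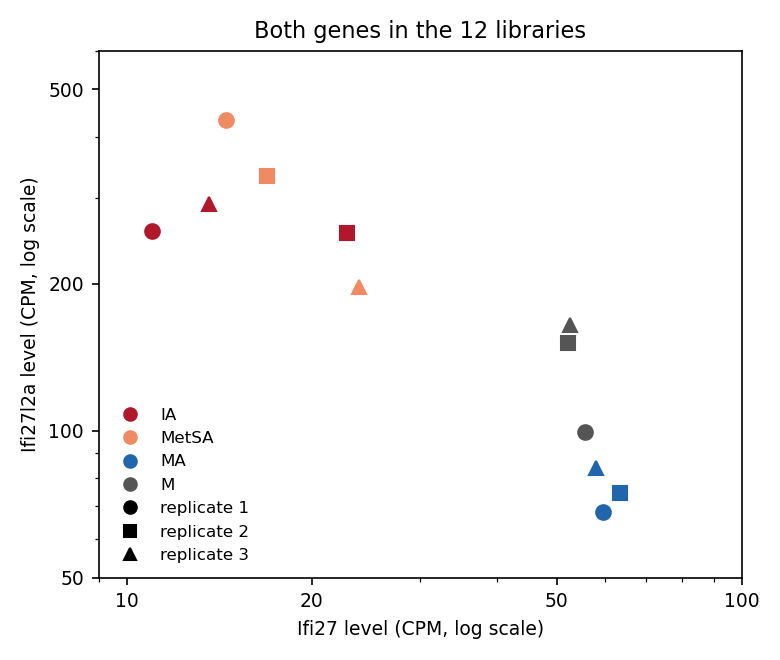
Ifi27l2a level against Ifi27 level in CPM, both on log scales, in the 12 libraries, with colour for the group and marker shape for the replicate. IA and MetSA libraries fall at 11.0 to 23.9 CPM of Ifi27 and 197 to 433 CPM of Ifi27l2a, and MA and M libraries at 52.2 to 63.5 CPM of Ifi27 and 68.1 to 165 CPM of Ifi27l2a.

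Within groups the genes did not move as a fixed pair. Among MetSA libraries, replicate 3 had the most Ifi27 (23.9 CPM) and the least Ifi27l2a (197 CPM). It also had the smallest interferon response, taken as the mean log2 level of 29 other interferon-named genes above the M mean, at 1.83 against 2.37 and 2.16 in MetSA replicates 1 and 2. Among IA libraries, replicate 2 had the most Ifi27 (22.8 CPM), while its Ifi27l2a (254 CPM) and its interferon mean (2.73) were close to those of the others, which were 2.59 and 2.65. Among M libraries Ifi27 stayed between 52.2 and 55.7 CPM while Ifi27l2a ran from 99.6 to 165 CPM and the interferon mean from -0.27 to 0.26.

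Ifi27l2b was barely detected, with 7 counts in all 12 libraries together and at most 2 in any library. It did not pass the filter on low counts and was not tested. A count of 0, seen in 8 libraries, allows up to 3 counts, or 0.0559 to 0.0633 CPM. That limit covers counting error only, and would be higher if read mates were counted separately.

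The genes that share the interferon name were the setting in which Ifi27 stood apart. Symbols starting with Ifi or Isg numbered 34 besides the pair, of which 29 had enough counts to be tested, and since the choice of Ifi27 rested on this pattern their counts are descriptive. With IA, 23 of 29 rose in edgeR's quasi-likelihood test at an adjusted p under 0.05, where 17.9% of all genes rose (50.9% of all calls were higher, or 34.8% with upper-quartile scaling), and their median log2 fold change was 2.93, beside -0.03 over all genes tested. None fell (17.3% of all genes did), also at an unadjusted p under 0.05 and with DESeq2. With MetSA, 24 of 29 rose, where 12.6% of all genes did (59.7% of calls, or 42.2% with upper-quartile scaling), at a median of 2.29 beside -0.01, and again none fell by any of these counts, where 8.53% of all genes did. With MA, 13 fell, where 10.1% of all genes did, and 1 rose, at a median of -0.56 beside -0.02.

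Of the 29, the cytosolic RNA sensor Ifih1 had the smallest adjusted p with IA, at a log2 fold change of 2.15 (edgeR adjusted p = 4.4e-12, SE 0.09). The p200 family genes Ifi211, Ifi207 and Ifi204 came next by adjusted p, with log2 fold changes of 3.13 (SE 0.11), 1.40 (SE 0.07) and 2.62 (SE 0.13). Ifi27 had the lowest log2 fold change of the 31 interferon-named genes, the pair included, with IA and with MetSA. Ifi27l2a stood low among those that were higher, at rank 25 from the top with IA and rank 22 with MetSA. With MA the order turned, with Ifi27 at rank 3 and Ifi27l2a at rank 25. The 6 tested genes not called with IA were Ifitm10, Ifi30, Ifitm2, Isg20l2, Ifitm1 and Ifitm5. Of these Ifitm5, known from bone-forming cells, went furthest below 0 (-0.84, SE 0.73), at only 0.204 CPM with IA and 0.37 CPM in M. Ifi30, a lysosomal thiol reductase that helps in antigen processing, was the one of the 29 that rose with MA (0.38, SE 0.08).

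**Figure D3:**
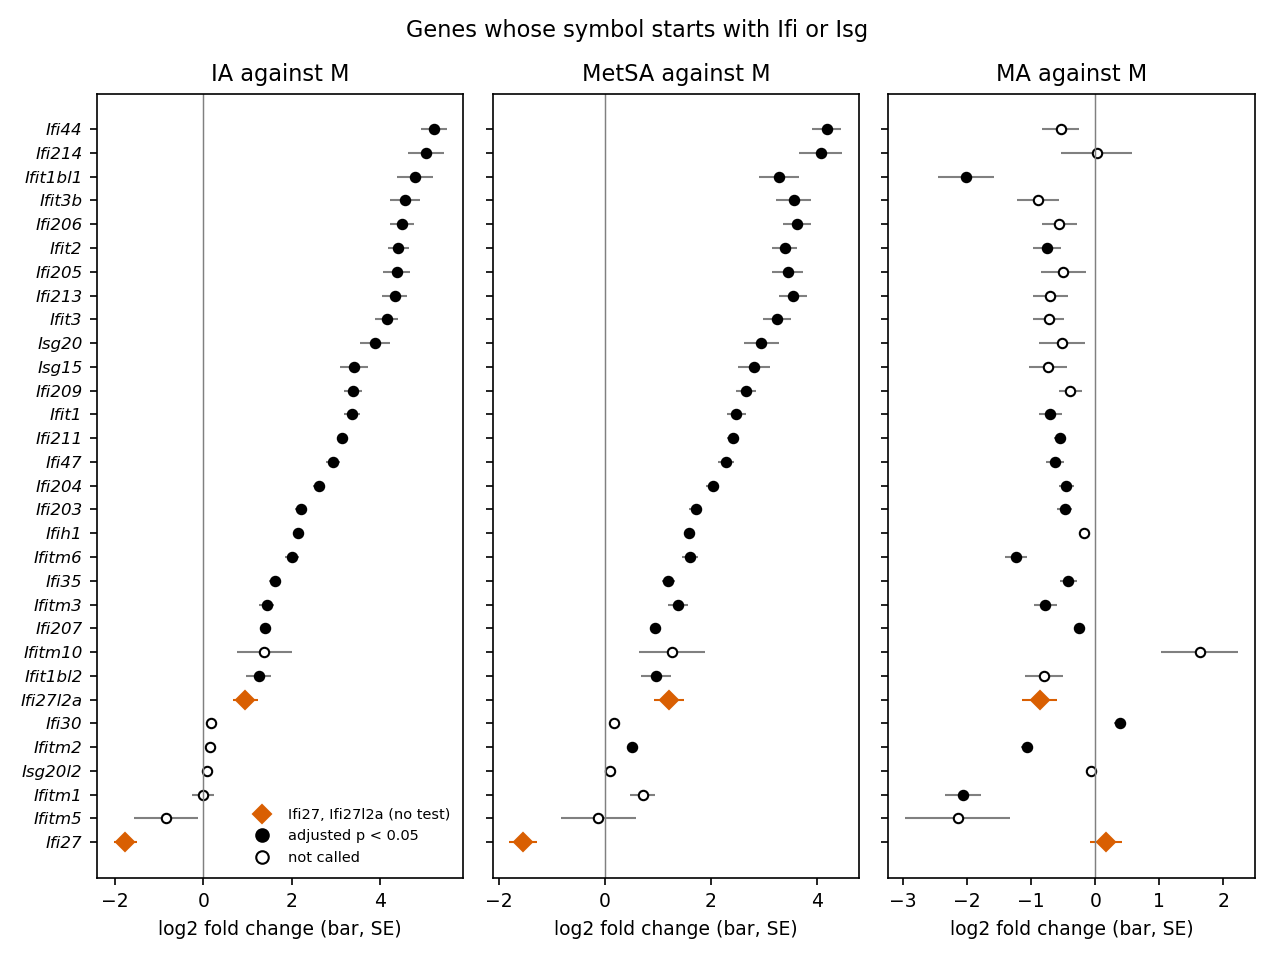
Log2 fold change against M of the 31 tested genes whose symbol starts with Ifi or Isg, with bars for the SE and genes in the order of the IA comparison, where filled circles are genes called by edgeR and diamonds are Ifi27 and Ifi27l2a, which carry no test. Ifi27 lies at the bottom with IA (-1.76) and MetSA (-1.54), and Ifi27l2a at 0.95 and 1.21.

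Between IA and MetSA, 11 of the 29 interferon-named genes were higher in IA and 1 was lower, where 3.97% and 2.15% of all genes were, with a median log2 difference of 0.60. DESeq2 called 18 higher and 2 lower. Ifitm2, a membrane protein that restricts virus entry, was the one that was lower (-0.35, SE 0.09). It had 254, 292 and 277 CPM with IA and 373, 353 and 324 CPM with MetSA, without overlap. Its neighbour in the family Ifitm3 had a log2 difference of 0.05 (SE 0.17), and Ifi27l2a one of -0.26 (SE 0.28). Of interferon-stimulated genes without interferon in their name, 32 were listed and tested. This list was drawn up with earlier results of these data known, so its counts are descriptive too. All 32 rose with IA and with MetSA in edgeR's test, at medians of 2.19 and 1.68, where 17.9% and 12.6% of all genes rose. With MA 18 fell, where 10.1% of all genes did, and none rose by adjusted or unadjusted p or by DESeq2. The 4 with the smallest adjusted p with IA were Trim30a (1.91, SE 0.07), the ubiquitin ligase gene Dtx3l (1.96, SE 0.08), the RNA sensor Ddx58 (2.24, SE 0.09) and the oligoadenylate synthetase Oas1a (1.56, SE 0.07).

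Of 9 listed genes for interferons, their receptors and the kinases bound to them 6 were tested. The 3 left out, the interferon genes Ifnb1, Ifna4 and Ifng, stayed under 1 CPM in every library. Of the 6 tested, 2 rose and 1 fell with IA, 2 rose with MetSA and 1 fell with MA. Over all genes 17.9% rose and 17.3% fell with IA, 12.6% rose with MetSA and 10.1% fell with MA, so counts this small are not read as a result about the list. The type I receptor chain Ifnar1 had a log2 fold change of -0.01 (SE 0.07) with IA and -0.05 (SE 0.07) with MetSA. Its partner Ifnar2 was at 0.14 (SE 0.06, edgeR adjusted p = 0.0644) with IA and rose by 0.23 (SE 0.06, adjusted p = 0.00839) with MetSA. The receptor-bound kinase Tyk2 rose by 0.47 (SE 0.08) with IA and by 0.23 (SE 0.08) with MetSA. The interferon gamma receptor chain Ifngr1 fell by 0.46 (SE 0.07) with IA and by 0.33 (SE 0.07) with MA on the log2 scale.

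Position was not used in choosing the pair, so its neighbours could be tested. Within 300 kb on either side GENCODE M21 lists 20 other genes, of which 14 are in the count table and 5 had enough counts. Of these 5, edgeR called 1 with IA against M (35.2% of all genes were called), 2 with MetSA against M (21.2%) and 1 with MA against M (20.3%). None was called between IA and MetSA (6.12% of all genes), where 1 had an unadjusted p under 0.05 and 1 was called by DESeq2. For IA against MA 3 were called (34.6%), and for MetSA against MA 4 (26.4%).

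Ddx24, a DEAD-box RNA helicase gene on the minus strand upstream of Ifi27, was the nearest tested neighbour. It had 153, 157 and 156 CPM with IA, 151, 142 and 143 CPM with MetSA, 119, 126 and 126 CPM with MA, and 121, 126 and 123 CPM in M. It rose by 0.33 with IA (SE 0.05, edgeR adjusted p = 7.49e-05) and by 0.24 with MetSA (SE 0.05, adjusted p = 0.0032). With MA its log2 fold change was 0.00 (SE 0.05). Ddx24 was thus higher in the groups in which Ifi27 was lower. Otub2, a deubiquitinase gene on the far side of Ddx24, was called for MetSA against MA (0.77, SE 0.19), at 5.48 ± 1.10 CPM in MetSA and 3.22 ± 0.537 CPM in MA.

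Asb2, which encodes a subunit of a ubiquitin ligase, was the neighbour with the largest fall. It had 0.466, 0.855 and 0.808 CPM with MA and 1.61, 2.07 and 2.10 CPM in M, without overlap (-1.44, SE 0.28, edgeR adjusted p = 0.000907). With IA its log2 fold change was -0.25 (SE 0.27) and with MetSA 0.61 (SE 0.26), neither of them called. Gm15523, an antisense gene within Asb2, had 1.17, 1.23 and 1.48 CPM with MetSA and 0.443, 0.704 and 0.650 CPM in M (1.11, SE 0.34, adjusted p = 0.0232), a call that was lost without MetSA replicate 3 (adjusted p = 0.0786) or M replicate 1 (0.11). Gm15523 lies inside the Asb2 gene interval on the opposite strand, and whether reads of one were counted for the other was not tested. Ppp4r4, a phosphatase subunit gene, had mean levels of 0.286 to 0.491 CPM in the 4 groups and was not called in any of the 6 comparisons.

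**Figure D4:**
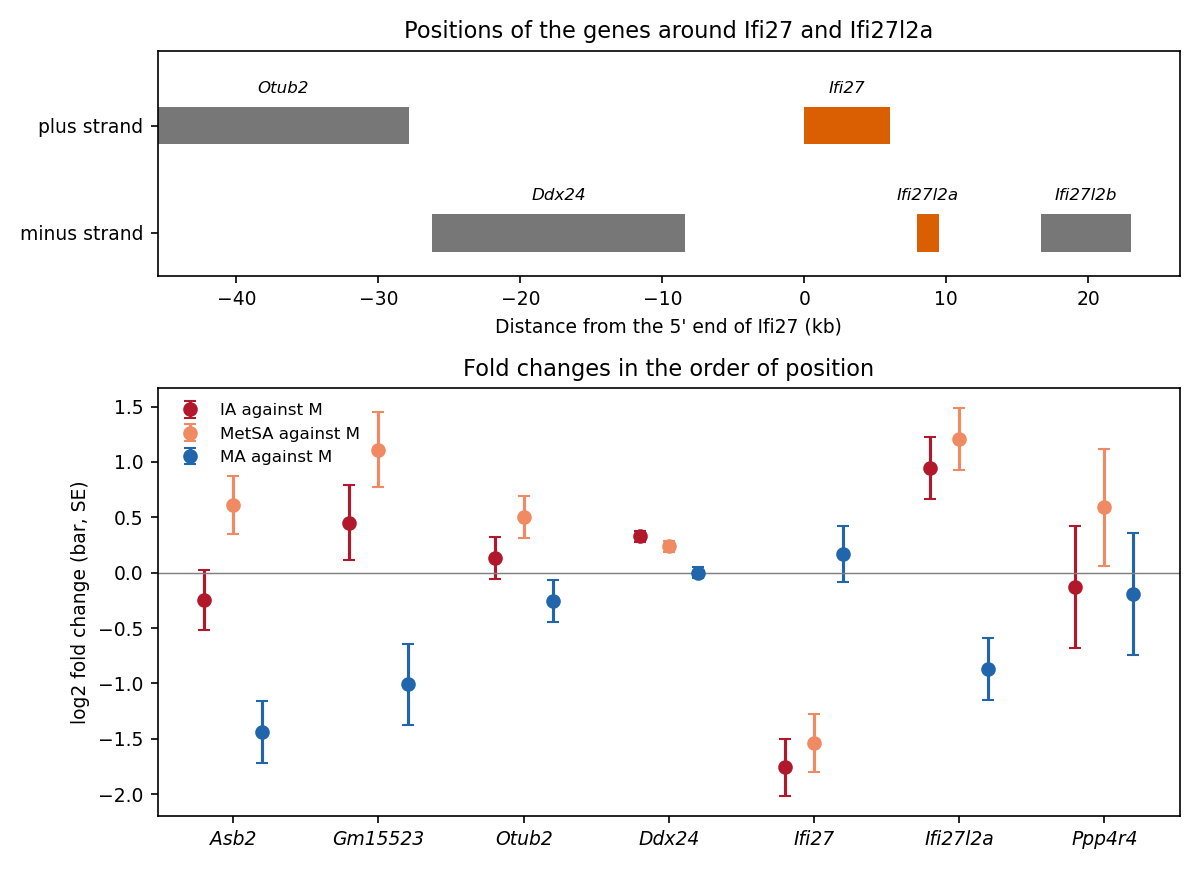
Upper panel, gene bodies on each strand by distance in kb from the 5′ end of Ifi27, with the pair in orange. Lower panel, log2 fold change against M with its SE for the 5 tested neighbours and the pair in the order of position. Ifi27 is lower with IA and MetSA, and its neighbours Ddx24 (0.33 and 0.24) and Ifi27l2a (0.95 and 1.21) are higher.

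Genes with a profile like that of Ifi27 were found by the root mean square (RMS) difference of log2 CPM over the 12 libraries, each profile centred on its own mean, among 8487 genes with a group mean of at least 10 CPM. The nearest was Nptx1, a secreted pentraxin gene, at an RMS difference of 0.317 log2 units. It averaged 46.5 ± 13.1 CPM in IA, 75.4 ± 3.65 in MetSA, 169 ± 17.9 in MA and 147 ± 29.0 in M (SD, n = 3 each). Itgax, which encodes the integrin CD11c, came next at 0.337, with 18.8 ± 2.62, 20.4 ± 4.28, 47.6 ± 2.58 and 41.5 ± 2.98 CPM in IA, MetSA, MA and M. The transcription factor gene Sox4 (0.391), the phospholipase gene Plcb4 (0.392) and Plekhh2 (0.420) followed. Sox4 had a higher mean with MA (91.9 ± 2.15 CPM) than in M (57.0 ± 1.17 CPM). Plcb4 averaged 3.66, 3.32, 11.6 and 7.38 CPM in IA, MetSA, MA and M, and Plekhh2 4.17, 4.79, 12.2 and 8.36 CPM. Both reached 10 CPM only with MA and so passed the filter through that group. Their higher level with MA is therefore not read as a result.

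The profiles nearest to Ifi27l2a were closer to it than these were to Ifi27. They belonged to Lst1, a leukocyte membrane protein gene (RMS difference 0.219), the antiviral gene Ifitm3 (0.226), the chemokine gene Ccl4 (0.236), the NF-kB regulator Nfkbiz (0.266) and the lipopolysaccharide-degrading enzyme Aoah (0.290). Ifitm3 averaged 858 ± 54.4 CPM in IA, 826 ± 173 in MetSA, 185 ± 22.0 in MA and 317 ± 61.6 in M. Lst1 averaged 32.8 ± 4.04 CPM in IA, 34.7 ± 14.7 in MetSA, 11.0 ± 1.74 in MA and 18.0 ± 6.01 in M. The RMS difference between Ifi27 and Ifi27l2a themselves was 1.75.

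**Figure D5:**
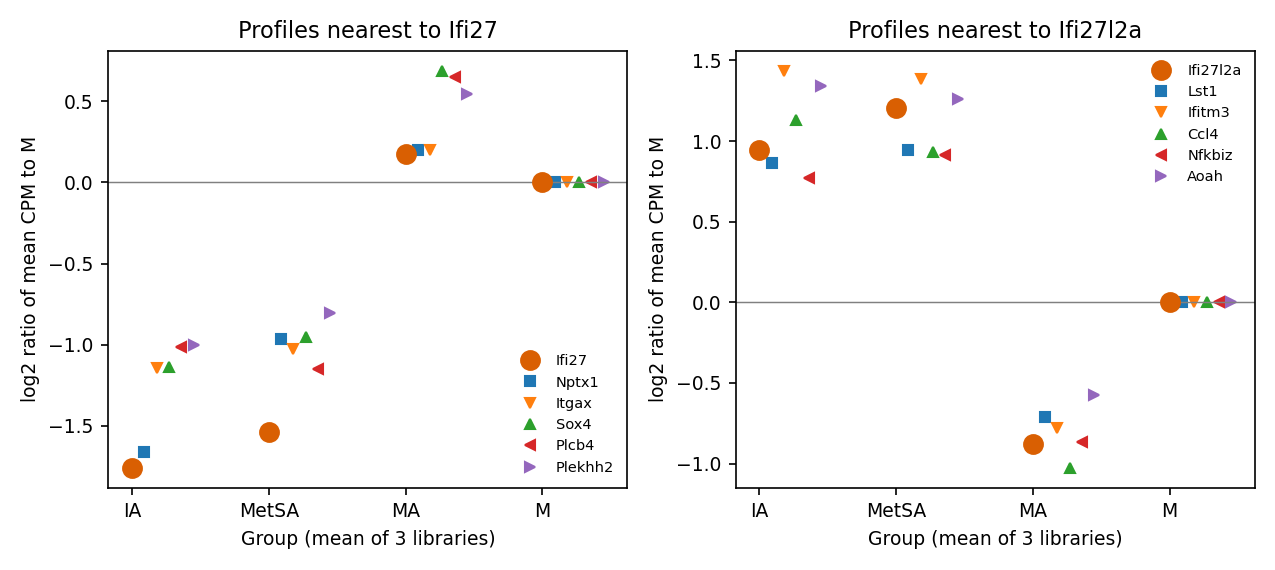
Log2 ratio of the group mean CPM to the M mean for Ifi27 (left) and Ifi27l2a (right) and the 5 genes with the nearest profiles to each, with groups along the axis and 1 marker per gene. Near Ifi27 all genes lie below 0 with IA and MetSA, and near Ifi27l2a all lie above 0 with IA and MetSA and below 0 with MA.

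The libraries held 46892488 to 54252486 counts, and 14113 genes were tested. All 8 macrophage markers, Adgre1, Csf1r, Cd68 and Lyz2 among them, were well expressed, with Adgre1 at 1880 to 3580 CPM. They also moved with the groups, with 6 of 8 called higher in IA and 7 in MetSA, where 17.9% and 12.6% of all genes were. The Fc receptor gene Fcgr1 moved most (2.51, SE 0.13 with IA and 1.91, SE 0.13 with MetSA). With MA 2 were called higher and Adgre1 was called lower (-0.43, SE 0.07), where 10.1% of all genes were called in each direction. Markers of other cells also moved with the groups in which the pair moved, and in these bulk samples fewer cells of a type and less RNA per cell cannot be told apart. The 5 endothelial markers summed to 42.2 to 46.6 CPM in IA, 24.0 to 36.9 in MetSA, 8.33 to 10.5 in MA and 8.06 to 9.50 in M. The 3 that were tested, Pecam1, Cdh5 and Kdr, rose with IA and MetSA, where 17.9% and 12.6% of all genes rose. Tie1 and Emcn stayed below 1 CPM in every library. The 4 monocyte markers summed to 549 to 666 CPM in IA, 394 to 508 in MetSA, 229 to 251 in MA and 231 to 287 in M, with 3 of 4 called higher in IA and 2 in MetSA, where 17.9% and 12.6% of all genes were. Ccr2 made up most of that sum, at 546 CPM in IA, 411 CPM in MetSA and 227 CPM in M, while Chil3 was not called with IA (0.16, SE 0.30) or MetSA (0.19, SE 0.30). The 4 dendritic cell markers summed to 6.66 to 7.47, 2.73 to 4.57, 2.29 to 2.94 and 1.59 to 2.37 CPM in IA, MetSA, MA and M. In that sum Xcr1 averaged 4.86 CPM in IA and 0.223 CPM in M (4.42, SE 0.28), while Flt3 (-0.30, SE 0.75) and Zbtb46 (0.08, SE 0.39) were not called with IA. Siglech was called higher with IA (1.02, SE 0.39) and with MA (1.39, SE 0.38), at 0.483 CPM in M. Of the 4, 2 were called higher with IA, 1 with MetSA and 2 with MA, where 17.9%, 12.6% and 10.1% of all genes were. Stromal markers summed to 6.32 to 36.2 CPM and neutrophil markers to 38.1 to 71.6 CPM over the 12 libraries with overlapping groups. The lymphocyte markers together stayed at or below 0.573 CPM, and Ncr1 was at 0 in every library. The part of these cells and markers in the levels of Ifi27 and Ifi27l2a was not tested.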

How the data were processed

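The submitters' processing notes name STAR, featureCounts and mm10, while versions, annotation, strand and mate settings are not stated. The authors deposited raw counts of reads for each gene, as whole numbers without normalisation. All 12 columns were matched to samples by their description labels, and 32158 of 32285 genes had a symbol (the other 127 held 0.0267% of counts). Even numbers made up 66.1% of counts from 1 to 9 and 50.9% of the largest counts (4 digits or more), so mates may have been counted separately and a repeat used halved counts. Replicates all differed by more than counting noise (chi-square over its degrees of freedom 9.6 to 59.7).

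Genes passing filterByExpr (14113, 99.98% of counts) were scaled by TMM and tested in 1 fit of 4 groups by edgeR's quasi-likelihood test (robust, 8 residual degrees of freedom), with 6 comparisons and Benjamini-Hochberg adjustment over all genes tested. Genes were called at an adjusted p under 0.05. Log2 CPM used a prior count of 2. RPKM divides CPM by the union of GENCODE M21 exons. Exon sequences are from GENCODE M21 transcripts. The fit was run on simulated counts with the same spread for every gene and no pairing. That run does not test the fit at the uneven spread of these replicates. Versions were R 4.3.3, edgeR 4.0.16 and DESeq2 1.42.0.

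The members, lists and rules were chosen with earlier results of these data known. Named genes were the pair, Ifi27l2b, tested genes within 300 kb, the 5 nearest profiles to each of the pair (predicted genes skipped), up to 4 genes a list by adjusted p with IA and up to 3 against its median. Ifnar1, the Ifitm genes and the cell type markers given with values were named after their values were seen. Some genes of the lists are not reported here by name. Alternatives were DESeq2 size factors, upper-quartile scaling, no filter, a stricter filter (min.count 50), the DESeq2 test, a replicate block, halved counts and leaving out each library.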

Additional observations from a re-analysis of the deposited data

How the results depend on the processing

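The log2 fold changes of Ifi27 and Ifi27l2a were compared with a limit, the larger replicate SD of log2 CPM in the groups compared. They moved by less than this under all 19 alternatives in all 6 comparisons, 228 values in total. Upper-quartile scaling moved the median gene only from -0.031 to -0.119 with IA against M. Ifi27 ran from -2.27 to -1.23 over the IA libraries, in log2 units from the M mean. A change of scaling could therefore hardly exceed the limit there. A library left out can hardly move a value that far either, so those settings are no real test of the limit, and their ranges are given instead. Leaving out each library gave -2.12 to -1.55 for Ifi27 and 0.76 to 1.09 for Ifi27l2a with IA against M. With MetSA against M it gave -1.77 to -1.39 for Ifi27 and 0.93 to 1.47 for Ifi27l2a. Between IA and MetSA the range was -0.58 to 0.01 for Ifi27 and -0.52 to 0.02 for Ifi27l2a. Ifi27l2b gave no value, since it was filtered out.

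The count of genes called between IA and MetSA was 864 and rose to 1483 with no filter, 1348 with DESeq2 and 1413 with the replicate block, and ranged from 420 to 974 when each library was left out (426, 567 and 420 without IA replicates 1, 2 and 3, and 505 without MetSA replicate 3). Interferon-named genes higher in IA than in MetSA numbered 8 with the replicate block, against 11, and other interferon-stimulated genes lower with MA 12, against 18. The cause was not tested. The sample titles repeat the same 3 WT numbers in each of the 4 groups but do not say whether same-numbered libraries are pairs. The main fit did not take them as pairs, so its SEs and p-values leave out any such matching. Same-numbered libraries correlated at 0.0122 to 0.169 in their deviations from group means (median 0.0693), over 0.1 in 2 of 18 pairs. Differently numbered libraries correlated at -0.113 to 0.0233 (median -0.0322, 36 pairs). All 12 libraries were closest on average to their own number. The replicate block is the alternative that allows for pairing by number. The other 5 counts of calls stayed within 1.5 times. With upper-quartile scaling the share of calls that were higher was 34.8% with IA against M and 42.2% with MetSA against M, against 50.9% and 59.7% with TMM, and the median gene moved to -0.119 and -0.074.

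Uncalled neighbours near 0 changed sign. Ddx24 with MA against M gave 0 with DESeq2 size factors and with the DESeq2 test, and -0.01 to 0.03 when each library was left out. Ppp4r4 gave -0.02 for IA against MA with upper-quartile scaling, and leaving out each library gave -0.29 to 0.72 there, -0.44 to 0.26 for IA against M and -0.85 to 0.20 for MA against M. Asb2 for IA against MetSA was called under 5 alternatives, Asb2 for MetSA against M with the replicate block (adjusted p = 0.0432), and Otub2 for MetSA against M and Gm15523 for MA against M under 4 each. Ppp4r4 was filtered out under some alternatives. The number of counts limits Ppp4r4 and Ifi27l2b.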

Other observations

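Human IFI27 has been tied to the nuclear receptors of the NR4A group, to the export receptor XPO1 and to the ubiquitin ligase subunit SKP2. Of the 5 mouse genes for these, Nr4a2 was the one called higher with each compound against M, by 0.71 with IA (SE 0.24, adjusted p = 0.0286 in edgeR's test), 0.92 with MetSA (SE 0.24, adjusted p = 0.00923) and 0.88 with MA (SE 0.24, adjusted p = 0.0126). This was 1 of 5 in each comparison, where 17.9%, 12.6% and 10.1% of all genes rose with IA, MetSA and MA, so the count is not read as a result about the list. Mean levels of Nr4a2 were low, at 2.19, 2.54 and 2.47 CPM with IA, MetSA and MA and 1.34 CPM in M. Nr4a1, the most abundant of the 3 receptors, was at 18.5 CPM with IA and 20.1 CPM in M (-0.12, SE 0.19). Skp2 had 16.5 CPM with IA and 18.1 CPM in M (-0.13, SE 0.08), and Xpo1 154 CPM and 137 CPM (0.17, SE 0.07), neither of them called.

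ISG12 proteins have been linked to death through mitochondria, and 22 genes of that pathway were all tested. With IA against M 12 rose and 4 fell, where 17.9% of all genes rose and 17.3% fell, at a median of 0.22. Mcl1, which protects cells from death, rose by 0.71 (SE 0.05, edgeR adjusted p = 5.23e-09). The pore-forming gene Bak1 rose by 0.52 (SE 0.06) and the caspase activator Apaf1 by 0.49 (SE 0.07). The 4 that fell were Bik (-1.90, SE 0.55), Bcl2 (-0.43, SE 0.15), Vdac1 (-0.32, SE 0.08) and Vdac2 (-0.20, SE 0.06). Bik was barely expressed, at 0.251 CPM with IA and 0.938 CPM in M. With MetSA 7 rose and 1 fell, where 12.6% and 8.53% of all genes did, and with MA 3 rose and 3 fell, where 10.1% did in each direction.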
